A study of Mus musculus with 38 samples.

Results

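The genes described here are 10 components of Toll-like receptor signalling in the mouse hypothalamus. They are 4 receptors of the cell surface (Tlr1, Tlr2, Tlr4 and Tlr6), 4 receptors of the endosome (Tlr3, Tlr7, Tlr9 and Tlr13) and 2 partners (Unc93b1 and Myd88). They were chosen by name, with earlier results of these data known, among the 19937 genes that could be named on the array. Each is read from the 1 probe set that carries its symbol alone, out of 34760 probe sets. Hypothalamic RNA from 7 groups of female FVB/N mice, 38 mice in all, was hybridised to Affymetrix Mouse Gene ST arrays. The AAV experiment had 5 mice injected with AAV-HTT853-18Q (18Q), 8 injected with AAV-HTT853-79Q (79Q) and 5 uninjected mice (WT control). The vectors are rAAV5 particles that drive an 853 amino acid fragment of human huntingtin with 18 or 79 glutamine repeats from the human Synapsin-1 promoter, which is active in neurons. They were injected into the hypothalamus at 8 weeks of age, and all 18 mice of this experiment were taken at 12 weeks, 4 weeks after the injection. No group received a vector without huntingtin, so the injection, the vector and the transgene cannot be told apart in comparisons with WT control mice. BACHD mice, which carry full-length human huntingtin with 97 repeats on a bacterial artificial chromosome and express it throughout the body, were compared with WT littermates at 2 months (6 and 6 mice) and at 10 months (5 and 3 mice).

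Toll-like receptors are membrane proteins that recognize microbial molecules and, in some settings, nucleic acids and other products of injured cells. Receptors at the cell surface sense lipoproteins and lipopolysaccharide, whereas those of the endosome sense RNA or DNA that a cell has taken up. The endosomal receptors depend on the chaperone Unc93b1 to leave the endoplasmic reticulum, and most receptors of either class signal through the adaptor Myd88 to NF-kB and to interferon regulatory factors. In the brain, microglia express most of these receptors, and Tlr3 is also found in astrocytes and neurons.

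The RefSeq promoter windows of the members that passed the test in both AAV comparisons are shown as sequence features that the choice of the genes did not use. Windows of 300 bases around the transcription start (250 before and 50 after it, build GRCm38.p6) were listed for 7 of the 10 genes, Tlr4, Tlr7 and Unc93b1 having no entry. The 250 bases before the start are printed 5′ to 3′ on the strand of the gene, for Tlr3 (chr8:45410381-45410630, minus strand), Tlr9 (chr9:106222348-106222597, plus strand), Tlr13 (chrX:106143025-106143274, plus strand) and Myd88 (chr9:119340019-119340268, minus strand). Capitals mark a match to the NF-kB consensus in Tlr3, to the PU.1 core GAGGAA in Tlr9 and Tlr13, and to the core of the interferon-stimulated response element (ISRE, GAAANNGAA) in Myd88.
Tlr3 promoter: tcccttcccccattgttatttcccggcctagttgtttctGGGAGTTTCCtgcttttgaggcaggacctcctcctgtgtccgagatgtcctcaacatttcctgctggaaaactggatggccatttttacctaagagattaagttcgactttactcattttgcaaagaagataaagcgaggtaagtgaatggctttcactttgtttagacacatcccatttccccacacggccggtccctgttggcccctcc
Tlr9 promoter: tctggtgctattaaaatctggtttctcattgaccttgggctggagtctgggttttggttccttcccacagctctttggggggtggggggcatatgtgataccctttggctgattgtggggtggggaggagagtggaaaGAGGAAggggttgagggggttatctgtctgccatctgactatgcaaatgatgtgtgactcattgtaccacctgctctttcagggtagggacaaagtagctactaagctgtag
Tlr13 promoter: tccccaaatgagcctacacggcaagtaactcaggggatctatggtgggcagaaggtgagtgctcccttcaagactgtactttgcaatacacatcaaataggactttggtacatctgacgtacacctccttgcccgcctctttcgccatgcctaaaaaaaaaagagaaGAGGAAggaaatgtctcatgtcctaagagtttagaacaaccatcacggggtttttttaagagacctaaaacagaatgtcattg
Myd88 promoter: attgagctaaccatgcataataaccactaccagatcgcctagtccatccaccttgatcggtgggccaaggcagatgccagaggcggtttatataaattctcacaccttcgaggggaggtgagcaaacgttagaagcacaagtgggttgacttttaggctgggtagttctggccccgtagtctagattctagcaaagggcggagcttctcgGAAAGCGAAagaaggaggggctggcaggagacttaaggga
The marked match starts 211 bases before the transcription start in Tlr3, 112 bases before it in Tlr9, 83 bases before it in Tlr13 and 40 bases before it in Myd88. Both strands were searched in the whole window. The ISRE core occurred in 8.56% of 32851 promoters and in those of Tlr6 and Myd88 among the members. Of all windows, 28.3% held the PU.1 core, as did those of Tlr1, Tlr9 and Tlr13. The NF-kB consensus was present in 8.46% of all windows and in those of Tlr2 and Tlr3, and the interferon gamma-activated site (GAS, TTCNNNGAA) in 8.3% and in those of Tlr1, Tlr6 and Myd88. In Myd88 the GAS match, 46 bases before the start, overlaps the ISRE match. Tlr1 and Tlr6 have 2 windows each, and a gene is named here if either window holds the match, whereas the shares count single windows. In Tlr6 the ISRE and GAS matches lie in different windows, as do the GAS and PU.1 matches in Tlr1. Tlr6 did not pass the test in any comparison described here. A match is a description of letters, and its absence says only that the letters are not in this window.

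Arrays of the AAV experiment, of the 2 months mice and of the 10 months mice shared identical probe set values only within these sets (0 to 9, 0 to 17 and 5 to 22 values per pair, against 0 across sets), so values were compared within a set only. Array medians ran from 7.38 to 7.46 on the log2 scale in the AAV experiment, from 7.16 to 7.41 at 2 months and from 7.28 to 7.32 at 10 months. Of 9 hypothalamic neuron markers, 8 lay above the median of their own array in all 38 arrays, the exception being Pomc. So did 5 of 6 thalamic markers, and the check does not show tissue free of neighbouring regions. Markers of the pituitary, which adjoins the hypothalamus, varied widely between mice at 2 months, with a summed linear intensity of 1222 to 31110 in WT and 728 to 10601 in BACHD mice. Thalamic sums at that age were 5663 to 10892 in WT and 6185 to 11137 in BACHD mice. The labels number the samples within a group. Each was taken as a separate mouse because the group sizes are those the study states, and p-values measure the spread between mice. The arrays measured bulk tissue, in which a change in the number of cells of a type and a change in RNA per cell cannot be told apart.

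In 18Q vs. WT, 9 of the 10 genes were higher at an adjusted p under 0.05 (limma, two-sided, Benjamini-Hochberg over all 34760 probe sets), and in 79Q vs. WT 5 of 10. The called genes in 18Q were all but Tlr6, and those in 79Q were Tlr3, Tlr9, Tlr13, Unc93b1 and Myd88. By the same rule 1.81% of all probe sets were called higher in 18Q and 1.49% in 79Q. As the 10 genes were chosen with earlier results known, these counts describe them and are no test of the set. None of the 10 was called lower (limma; also 0 at an unadjusted p under 0.05), where 0.308% and 0.581% of all probe sets were. The median log2 fold change, log2(FC), of the 10 genes was 0.58 in 18Q and 0.45 in 79Q, beside -0.01 and -0.02 over all probe sets. Both comparisons use the same 5 WT control mice, so they are given side by side and are not independent of each other. With every array centred on its own median, the calls over all probe sets split into 564 higher and 234 lower in 18Q (628 and 107 as deposited) and into 502 higher and 327 lower in 79Q (519 and 202 as deposited).

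**Figure D1:**
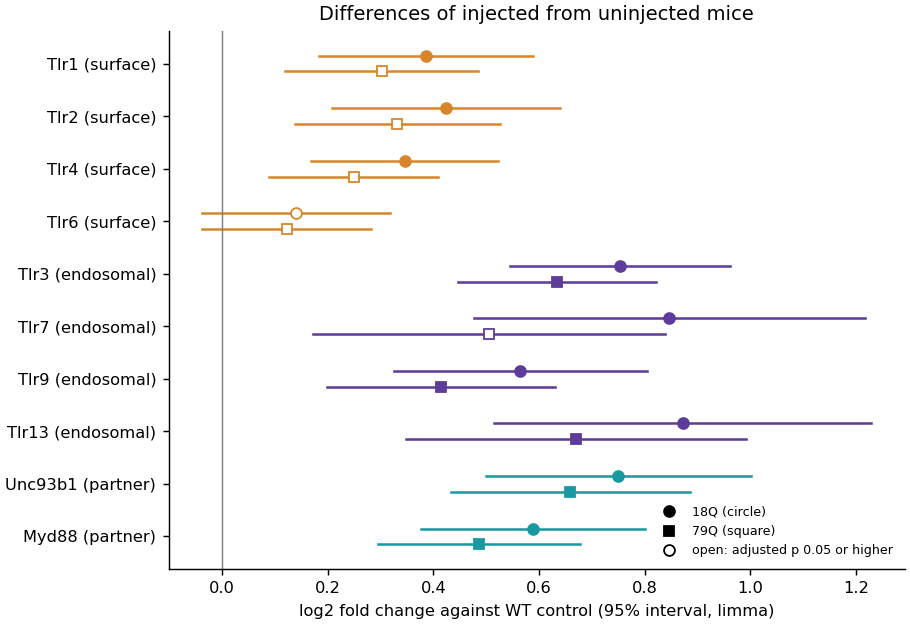
log2(FC) of each gene in 18Q (circles) and 79Q (squares) against WT control mice on the horizontal axis, with 95% intervals of limma; surface receptors are orange, endosomal receptors purple and partners teal, and open symbols have an adjusted p of 0.05 or higher. Each of the 4 endosomal receptors shown lies to the right of the 4 surface receptors of the same comparison, with ranges of 0.56 to 0.87 against 0.14 to 0.42 in 18Q and of 0.41 to 0.67 against 0.12 to 0.33 in 79Q.

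Tlr3, the receptor for double-stranded RNA and the one Toll-like receptor that signals through Ticam1 in place of Myd88, had the smallest adjusted p of the 10 genes in both comparisons. Its log2 values were 8.65, 8.56, 8.76, 8.76 and 8.37 in the 18Q mice and 7.68, 7.89, 7.78, 8.03 and 7.95 in the WT control mice. In the 8 79Q mice they ran from 8.26 to 8.78 with a median of 8.49. All 13 injected mice lay above the highest control. The log2(FC) was 0.75 for 18Q (SE 0.099, adjusted p = 0.000201) and 0.63 for 79Q (SE 0.089, adjusted p = 0.000426).

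Tlr13, which in mice recognizes bacterial ribosomal RNA, showed the largest log2(FC) of the 10 genes in both comparisons. The 18Q mice had log2 values of 7.73, 7.16, 7.84, 8.03 and 7.29, and the controls 6.79, 6.85, 6.53, 6.76 and 6.77. Values of the 79Q mice spread from 6.95 to 7.94, with a median of 7.40. The groups did not overlap, although the lowest 79Q mouse (replicate 5) was close to the highest control. This gave a log2(FC) of 0.87 for 18Q (SE 0.17, adjusted p = 0.00713) and 0.67 for 79Q (SE 0.15, adjusted p = 0.0266). Without 79Q replicate 8 or any 1 of the 5 controls, the gene no longer passed in 79Q vs. WT (adjusted p up to 0.0851).

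Tlr7, a receptor for single-stranded RNA, passed the test in 18Q alone. The log2 values were 7.17, 7.01, 7.38, 7.27 and 6.47 in 18Q and 5.93, 6.40, 5.98, 6.33 and 6.43 in the controls. In 79Q the lowest value was 6.30, the median 6.73 and the highest 7.21. The 18Q mice other than replicate 6 stood well apart from the controls, replicate 6 lay just above them, whereas 1 mouse of 79Q (replicate 3) fell within the control range. The difference from WT was 0.85 for 18Q (SE 0.18, adjusted p = 0.0121) and 0.51 for 79Q (SE 0.16, adjusted p = 0.125), with 8 of 8 79Q mice above the control mean.

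Tlr9, the receptor for DNA with unmethylated CpG motifs, was higher in both injected groups. Its log2 values were 8.06, 7.72, 8.15, 8.31 and 7.68 in 18Q mice, against 7.47, 7.49, 7.56, 7.27 and 7.30 in controls. The 79Q values lay between 7.65 and 8.11 with a median of 7.82. Neither injected group overlapped the controls. The log2(FC) came to 0.56 for 18Q (SE 0.11, adjusted p = 0.00925) and 0.41 for 79Q (SE 0.10, adjusted p = 0.0414). The call in 79Q was lost in 12 of the 18 fits that left out 1 mouse of the AAV experiment, with an adjusted p of up to 0.135, the highest value of these fits. They were the fits without 18Q replicate 1, without 79Q replicate 1, 2, 3, 6, 7 or 8, and without any 1 of the 5 controls.

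Both partners passed the test in each comparison. Unc93b1, the chaperone that carries endosomal Toll-like receptors out of the endoplasmic reticulum, had log2 values of 8.20, 8.05, 8.41, 8.30 and 7.97 in 18Q and of 7.41, 7.43, 7.36, 7.48 and 7.49 in the controls. In 79Q the values ran from 7.85 to 8.64, with a median of 8.07. The controls were tightly grouped and every injected mouse lay above them. The fitted log2(FC) was 0.75 for 18Q (SE 0.12, adjusted p = 0.00121) and 0.66 for 79Q (SE 0.11, adjusted p = 0.00178).

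Myd88, the adaptor that joins most Toll-like receptors and the receptors of the interleukin-1 family to their kinases, had log2 values of 8.47, 8.14, 8.44, 8.47 and 8.12 in 18Q and of 7.81, 7.81, 7.65, 7.81 and 7.61 in the controls. The 79Q mice lay between 8.04 and 8.59 with a median of 8.18. No injected mouse overlapped a control. The difference was 0.59 for 18Q (SE 0.10, adjusted p = 0.0024) and 0.49 for 79Q (SE 0.091, adjusted p = 0.00589).

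Among the surface receptors, Tlr1, Tlr2 and Tlr4 passed in 18Q vs. WT. None passed in 79Q vs. WT in the fit over all groups (limma), where 3 of 4 had an unadjusted p under 0.05. Tlr2, which pairs with Tlr1 or Tlr6 to recognize bacterial lipoproteins, had log2 values of 8.16, 7.89, 8.04, 8.25 and 7.64 in 18Q and of 7.63, 7.61, 7.69, 7.44 and 7.49 in the controls. Its values in 79Q lay between 7.74 and 8.18 with a median of 7.85. The lowest 18Q mouse (replicate 6) fell inside the control range, while all 8 79Q mice lay above it. The log2(FC) was 0.42 for 18Q (SE 0.10, adjusted p = 0.0351) and 0.33 for 79Q (SE 0.092, adjusted p = 0.0784). Without 18Q replicate 6, the adjusted p in 79Q vs. WT was 0.0293. Tlr2 also passed there with the dimmer probe sets removed (adjusted p = 0.0436) and with only the compared groups in the fit (adjusted p = 0.0325), while in 18Q vs. WT the latter fit gave an adjusted p of 0.0956.

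Tlr1, the partner of Tlr2 for triacylated lipoproteins, had log2 values of 5.95, 5.75, 5.97, 6.05 and 5.64 in 18Q and of 5.52, 5.56, 5.57, 5.39 and 5.39 in the controls. In 79Q they ran from 5.57 to 6.17 with a median of 5.74. The groups were separate, but the lowest 79Q mouse was barely above the highest control. This gave a log2(FC) of 0.39 for 18Q (SE 0.096, adjusted p = 0.0428) and 0.30 for 79Q (SE 0.087, adjusted p = 0.0886).

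Tlr4, the receptor for lipopolysaccharide, had log2 values of 5.89, 6.04, 5.98, 6.11 and 5.72 in 18Q and of 5.66, 5.60, 5.52, 5.51 and 5.71 in the controls. Its values in 79Q ran from 5.65 to 6.14, with a median of 5.88. The lowest 18Q mouse lay barely above the highest control, and 2 of the 8 79Q mice lay inside the control range. The log2(FC) came to 0.35 for 18Q (SE 0.084, adjusted p = 0.0372) and 0.25 for 79Q (SE 0.076, adjusted p = 0.113).

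Tlr6, which pairs with Tlr2 for diacylated lipoproteins, had the smallest differences of the 10 genes. The log2 values were 5.99, 5.96, 6.07, 6.26 and 5.92 in 18Q and 5.93, 5.92, 5.90, 5.93 and 5.82 in the controls, with 79Q between 5.79 and 6.29 around a median of 6.03. Each injected group overlapped the controls. The fitted log2(FC) was 0.14 for 18Q (SE 0.084, adjusted p = 0.547) and 0.12 for 79Q (SE 0.076, adjusted p = 0.519). The 95% intervals, -0.04 to 0.32 in 18Q and -0.04 to 0.28 in 79Q, still include a difference close to that of Tlr4. Tlr1 and Tlr6 are related genes that neighbour each other on chromosome 5, as Tlr7 and Tlr8 do on X, and cross-hybridization between their probe sets was not tested.

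The surface calls of 18Q lay near the threshold and depended on single mice. With arrays centred on their median Tlr1 and Tlr4 no longer passed (adjusted p = 0.0598 and 0.0614), and with the 79Q arrays left out of the fit Tlr2 did not (0.0956). When 1 mouse was left out of the 18 at a time, Tlr1 lost its call in 14 fits, Tlr4 in 8 and Tlr2 in 7, whereas Tlr3, Tlr7, Tlr9, Tlr13, Unc93b1 and Myd88 were called in all 18. The count of 9 fell to 6 without 18Q replicate 1, 3 or 4 or without WT control replicate 1, 2 or 5. In 79Q the count of 5 fell to 3 without replicate 8 or any 1 of the 5 controls, and it was 6 without 18Q replicate 6. Tlr3, Unc93b1 and Myd88 were called in 79Q in all 18 fits.

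**Figure D2:**
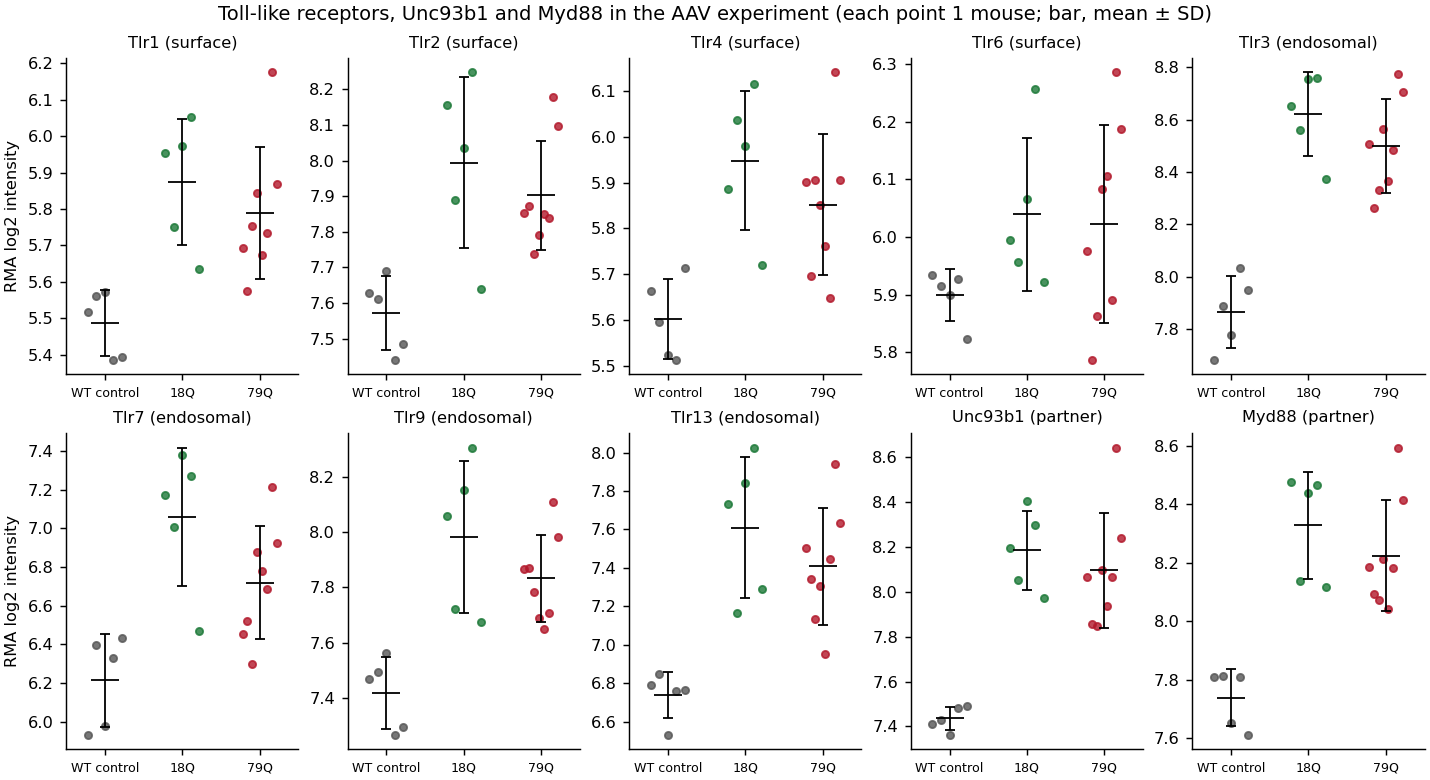
RMA log2 intensity (vertical axis, scaled per gene) of the 10 genes in WT control (n = 5), 18Q (n = 5) and 79Q (n = 8) mice, 1 point per mouse, with bars for the mean ± SD. For Tlr1, Tlr3, Tlr9, Tlr13, Unc93b1 and Myd88 all 13 injected mice lie above all 5 controls, in Tlr1 by a narrow margin. For Tlr6 the groups overlap. Of all probe sets, 2.57% were higher without overlap in 18Q and 1.77% in 79Q.

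Among the 8 receptors chosen here, those of the endosome differed from the controls by more than those of the surface. The order does not extend to the family members outside this choice. The endosomal receptors Tlr8 (0.04 in 18Q and 0.20 in 79Q) and Tlr12 (0.13 and 0.17) lay below each of Tlr1, Tlr2 and Tlr4. Both were dim, with WT control values of 4.90 to 5.04 (Tlr8) and 5.59 to 5.92 (Tlr12), so a change in them could go unrecorded. The surface receptor Cd180 (1.14 and 1.08) lay above every endosomal receptor. The median log2(FC) in 18Q was 0.80 for the 4 endosomal genes (0.56 to 0.87) and 0.37 for the 4 surface genes (0.14 to 0.42). In 79Q it was 0.57 (0.41 to 0.67) and 0.28 (0.12 to 0.33). The partners had medians of 0.67 and 0.57. Thus the smallest endosomal difference of the 4 was above the largest surface difference of the 4 within each comparison. Groups did not overlap for 4 of 4 endosomal and 2 of 4 surface genes in 18Q and for 3 of 4 and 2 of 4 in 79Q, and for both partners in each, a total of 8 and 7 of 10 genes where 2.57% and 1.77% of all probe sets were higher without overlap. Because the genes were chosen with results known and have only 4 members a class, these are descriptions with no test, and probe sets can also differ in how fully they record a change. The surface receptors Tlr1, Tlr4 and Tlr6 were dim, with WT control means of 5.49, 5.60 and 5.90. Tlr2 had a mean of 7.57 there, and the endosomal receptors had 6.21 (Tlr7) to 7.87 (Tlr3). The part of intensity in the order was not tested.

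The same order was seen within single mice. For each mouse the deviations from the WT control mean were averaged over the 4 genes of a class. In 18Q the endosomal mean was 0.84, 0.55, 0.97, 1.03 and 0.39, and the surface mean of the same mice 0.36, 0.27, 0.37, 0.53 and 0.09. The endosomal mean exceeded the surface mean in each of the 5, by 0.29 to 0.60. In the 79Q mice the excess ran from 0.15 to 0.40 with a median of 0.33, and it was above 0 in 8 of 8. The controls, whose class means are set to average 0, had values of -0.14 to 0.11. All 13 injected mice exceeded the 5 controls in this difference. It is computed from the same chosen genes, so it describes their order per mouse and is no further support for it. Tlr8, Tlr12 and Cd180, which do not follow the order, are not in these means.

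**Figure D3:**
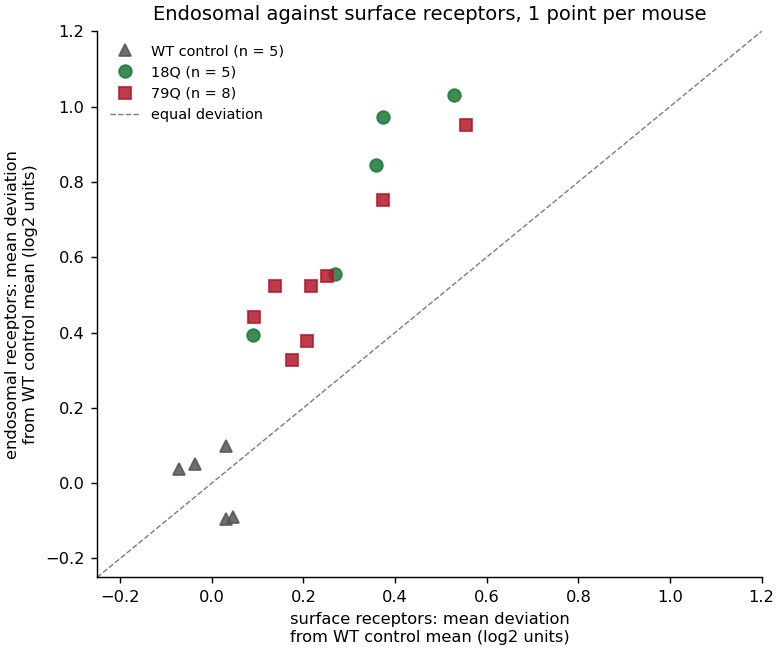
Mean deviation from the WT control mean (log2 units) of the 4 endosomal receptors (vertical axis) against that of the 4 surface receptors (horizontal axis), 1 point per mouse, with a dashed line where both are equal. The 5 18Q and 8 79Q mice lie above the line, with endosomal means of 0.33 to 1.03 and surface means of 0.09 to 0.55, and the 5 controls lie around 0. Tlr8, Tlr12 and Cd180, which do not follow this order, are not in the means.

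The 10 genes tended to be high or low together in a mouse. In 18Q, replicate 6 had the lowest value for 9 of the 10 genes, Tlr13 being the exception, and replicate 4 the highest for 7 (Tlr1, Tlr2, Tlr4, Tlr6, Tlr3, Tlr9 and Tlr13). In 79Q, replicate 7 was the highest for all 10. The median deviation over the 10 genes was 0.26 in 18Q replicate 6, 0.80 in 18Q replicate 4 and 0.77 in 79Q replicate 7. Still, even the lowest mouse of 18Q was above the highest control for 8 of the genes. Genes share the array of a mouse, so this order is not independent from gene to gene.

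**Figure D4:**
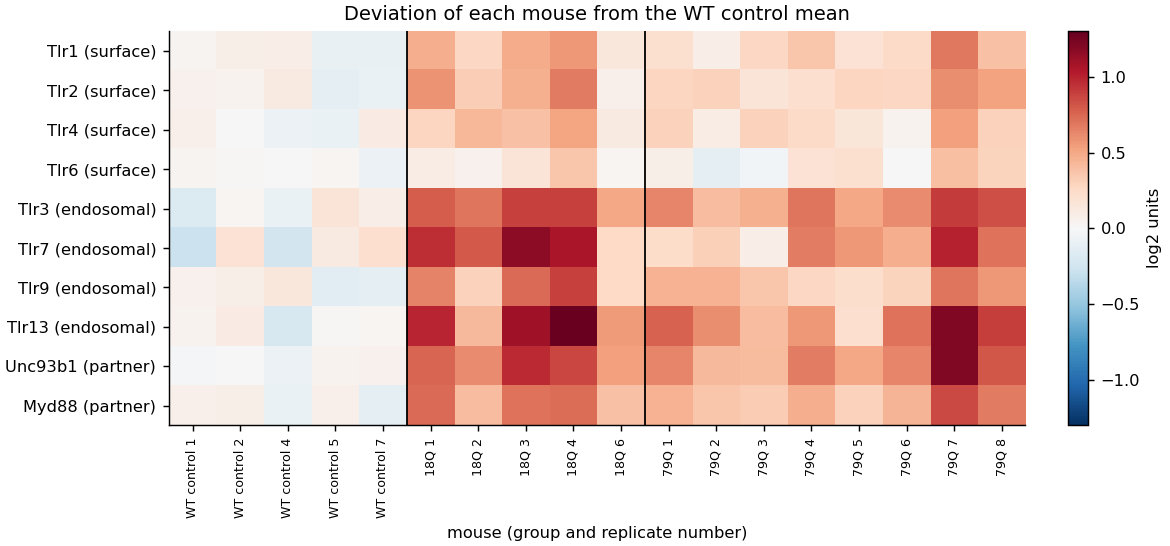
Deviation of each mouse from the WT control mean in log2 units (colour, red for higher and blue for lower) for the 10 genes (rows) in the 18 mice of the AAV experiment (columns, by group and replicate number). The rows of the endosomal receptors and partners are in general darker red than those of the surface receptors, and 18Q replicate 6 is the palest 18Q column.

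Between the injected groups, all 10 genes had a lower mean in 79Q, with log2 differences from 18Q of -0.02 (Tlr6) to -0.34 (Tlr7), and none passed the test. The median log2(FC) of 79Q vs. 18Q was -0.10, beside -0.01 over all probe sets. Of the 10 genes, 1 had an unadjusted p under 0.05, where 4.24% of all probe sets did. It was Tlr7, at -0.34 (SE 0.16, 95% interval -0.67 to -0.01), whose limma adjusted p rounded to 1 and whose exact permutation p, two-sided, was 0.0862. For Tlr3 the interval of the difference was -0.31 to 0.07 and for Unc93b1 it was -0.32 to 0.14, so that a difference of either size within these bounds remains compatible with the data. An adjusted p under 0.05 for Tlr1, Tlr2, Tlr4 and Tlr7 in 18Q and not in 79Q is therefore not a shown difference between the vectors.

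The rest of the pathway moved unevenly. Of 3 other receptors of the family measured, Cd180, a surface receptor without a signalling domain that dampens Tlr4 in macrophages and acts on B cells, had a log2(FC) of 1.14 for 18Q (SE 0.24, adjusted p = 0.0125) and 1.08 for 79Q (SE 0.22, adjusted p = 0.00994). The endosomal receptors Tlr8 and Tlr12, both dim on the array, did not pass (adjusted p of 0.926 and 0.328 for Tlr8). Among 8 co-receptors and chaperones, Ly86, the partner protein of Cd180, was the 1 gene called, at 1.23 in 18Q and 0.98 in 79Q (adjusted p = 0.000182 and 0.00062). Cd14 and Ly96, the co-receptors of Tlr4, had log2(FC) of 0.21 and 0.43 in 18Q without passing.

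In the endosome, 2 of 9 processing and transport genes rose in each comparison. Ctss, the protease cathepsin S, was higher by 1.66 in 18Q and 1.50 in 79Q (adjusted p = 2e-05 and 1.85e-05), and Slc15a3, a peptide transporter of the endolysosome, by 0.62 and 0.57 (adjusted p = 0.0021 and 0.00199). Lgmn, a protease that processes endosomal receptors, was at 0.20 in 18Q (adjusted p = 0.0987). Of 17 adaptors and kinases, 1 was called in 18Q and 2 in 79Q. Pik3ap1, a phosphoinositide 3-kinase adaptor, rose by 0.96 and 0.72, and Tirap, the bridge from Tlr2 and Tlr4 to Myd88, by 0.20 in 79Q (adjusted p = 0.0223; 0.12 and 0.276 in 18Q). Ticam1, the adaptor of Tlr3, was at 0.06 in 18Q and 0.09 in 79Q and did not pass.

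Of 10 transcription factors below the receptors, 4 rose in 18Q and 3 in 79Q. Irf7, the interferon regulatory factor that acts after Tlr7 and Tlr9, had the largest difference, at 2.81 for 18Q (SE 0.24, adjusted p = 2.13e-06) and 2.45 for 79Q (SE 0.22, adjusted p = 3e-06). Irf8 rose by 0.83 and 0.79, and Rela, a subunit of NF-kB, by 0.23 and 0.19. Irf5 rose by 0.46 in 18Q and was at 0.30 in 79Q (adjusted p = 0.0804). Among 11 negative regulators, Lilrb4a, an inhibitory receptor of myeloid cells, was the 1 gene called, at 0.69 and 0.82.

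Inflammatory target genes were called higher in 6 of 16 cases in each comparison. The chemokines Cxcl10, Ccl5 and Ccl3 rose by 3.91, 2.72 and 1.59 in 18Q and by 3.40, 2.40 and 1.37 in 79Q, and the cytokine Il1a by 1.15 and 0.96. Tnf, Il1b, Il6 and Ifnb1, which are classical products of the pathway, had log2(FC) of 0.19, 0.19, 0.06 and -0.08 in 18Q and of 0.31, 0.043, 0.063 and -0.0010 in 79Q, and did not pass in either comparison. Tnf in 79Q had an unadjusted p of 0.00514 (limma, adjusted p = 0.125), and Il1b in 18Q 0.0431 (limma, adjusted p = 0.373). The log2 values of Il6 (3.09 to 3.52) and Ifnb1 (5.16 to 5.75) were low in the 18Q, 79Q and WT control mice, so a change in them could go unrecorded. Of 13 other innate sensors and adaptors, 10 rose in 18Q and 8 in 79Q, with a median log2(FC) of 0.86 and 0.76 over the 13. Nod1, Nod2 and Nlrp3, which are not receptors for nucleic acids, accounted for 2 of the 10 (Nod1 at 0.33 and Nlrp3 at 0.41) and none of the 8. Of the 10 genes of nucleic acid sensing, 8 rose in each comparison, with a median of 1.12 in 18Q and 0.88 in 79Q. They included the cytosolic RNA sensors Ddx58 (1.75 and 1.46) and Ifih1 (1.72 and 1.39), the RNA-activated kinase Eif2ak2 (1.29 and 1.13) and Sting1 (0.86 and 0.76), the adaptor for cytosolic DNA. No gene of these lists was called lower.

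Some markers of immune cells were also higher in the injected mice. Of 17 microglial markers 10 were higher and none lower in each comparison, and the summed linear intensity of the 17 was 6170 to 6378 in the controls, 9306 to 14040 in 18Q and 9020 to 15137 in 79Q. The median log2(FC) of the list was 0.51 in 18Q and 0.42 in 79Q. C1qa, C1qb and C1qc, the chains of complement C1q, rose by 1.59, 1.59 and 1.92 in 18Q, Tmem119 by 0.89, Csf1r by 0.65 and both Cx3cr1 and Olfml3 by 0.47. The microglial markers P2ry12, Siglech, Gpr34 and Fcrls were at 0.15, 0.20, 0.04 and -0.11 in 18Q and did not pass. Neither did P2ry13, Sall1 and Aif1, at 0.32, 0.23 and 0.51 in 18Q.

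Of 10 T and NK cell markers, 5 rose in 18Q and 4 in 79Q, with a summed intensity of 628 to 683 in the controls, 801 to 1351 in 18Q and 801 to 1282 in 79Q. Of 7 B and plasma cell markers, 2 rose in 18Q and 1 in 79Q, with sums of 453 to 493 in the controls, 957 to 2875 in 18Q and 552 to 2699 in 79Q. Jchain, at 4.50 and 3.85, weighs heavily in these sums, and the median log2(FC) of the list was 0.57 and 0.39. Among 7 monocyte markers Lyz2 alone rose (2.55 and 2.65), and Ccr2 was at 0.18 and 0.15. The monocyte sums were 424 to 451 in the controls, 761 to 1022 in 18Q and 547 to 1529 in 79Q. They mainly follow Lyz2, as the median log2(FC) of the list was 0.03 in 18Q and -0.01 in 79Q. No marker of neutrophils (8 measured), plasmacytoid dendritic cells (5), oligodendrocytes (6) or neurons (6) was called (limma). At an unadjusted p under 0.05 in 18Q, 1 neutrophil and 2 neuronal markers were lower and 3 of the dendritic cell markers higher, and in 79Q 3 neuronal markers were lower. Of 8 astrocyte markers 2 were called higher in 18Q and 1 lower in 79Q, and of 6 endothelial markers 1 was called higher in 18Q. None of 9 hypothalamic neuron markers was called, with 0 and 5 lower at an unadjusted p under 0.05 in 18Q and 79Q, and none of the thalamic or pituitary markers (6 each) was called. The part of these cells in the differences of the 10 genes was not tested.

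For the genes called in both comparisons, the genes with the most similar pattern were found by the root mean square difference between deviations from the WT control mean over the 18 arrays, among 19937 genes. Tlr3 was nearest to Unc93b1 (0.091 log2 units), then to Dock8 and Itgam. Unc93b1 itself was nearest to Itgam (0.073), then to Cd33 and Inpp5d, and Myd88 to Man2b1 (0.073), Csf1r and Hcls1. Tlr9 was nearest to Lpcat2 (0.084), Itgal and Kcnk6, and Tlr13 to Cd33 (0.12), Cd53 and Parp10. All values of this measure come from the same 18 arrays and describe them only.

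In BACHD mice at 2 months none of the 10 genes passed the test, and 0 had an unadjusted p under 0.05, where 4.09% of all probe sets did. The median log2(FC) of the 10 genes was 0.05, beside -0.03 over all probe sets. Tlr3 differed most, at 0.21 (SE 0.13, 95% interval -0.06 to 0.48). Its log2 values ran from 8.15 to 8.86 in BACHD mice (median 8.65) and from 8.14 to 8.71 in WT mice (median 8.35), and the groups overlapped over most of their range. Tlr4 was lowest, at -0.12 (95% interval -0.28 to 0.04), with values of 4.96 to 5.35 (median 5.24) against 5.28 to 5.58 (median 5.30). Unc93b1 and Myd88 were at 0.04 and 0.09, with intervals of -0.14 to 0.23 and -0.13 to 0.31. The upper bounds for the endosomal receptors other than Tlr3 were 0.23 for Tlr7, 0.24 for Tlr9 and 0.10 for Tlr13.

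At 10 months none passed either, and 2 of 10 had an unadjusted p under 0.05, beside 4.55% of all probe sets. Myd88 had log2 values of 8.02, 8.13, 8.18, 8.08 and 8.06 in BACHD mice and 7.99, 7.86 and 7.97 in WT mice. The groups did not overlap, which also held for 670 higher and 542 lower of all 34760 probe sets. The Myd88 difference was 0.15 (SE 0.053, limma adjusted p = 0.997). Its exact permutation p, two-sided and not adjusted for the 10 genes, was 0.0179, the smallest that 5 against 3 mice can give. Tlr7 had values of 6.39, 6.45, 6.31, 6.31 and 6.39 against 6.32, 6.10 and 6.26. All BACHD mice were above the WT mean, with some overlap, and the difference was 0.15 (SE 0.061, limma adjusted p = 0.997, exact permutation p = 0.0714). The other 8 genes differed by -0.03 to 0.07. Microglial markers were not called at either age, with 0 of 17 under an unadjusted p of 0.05 at each.

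**Figure D5:**
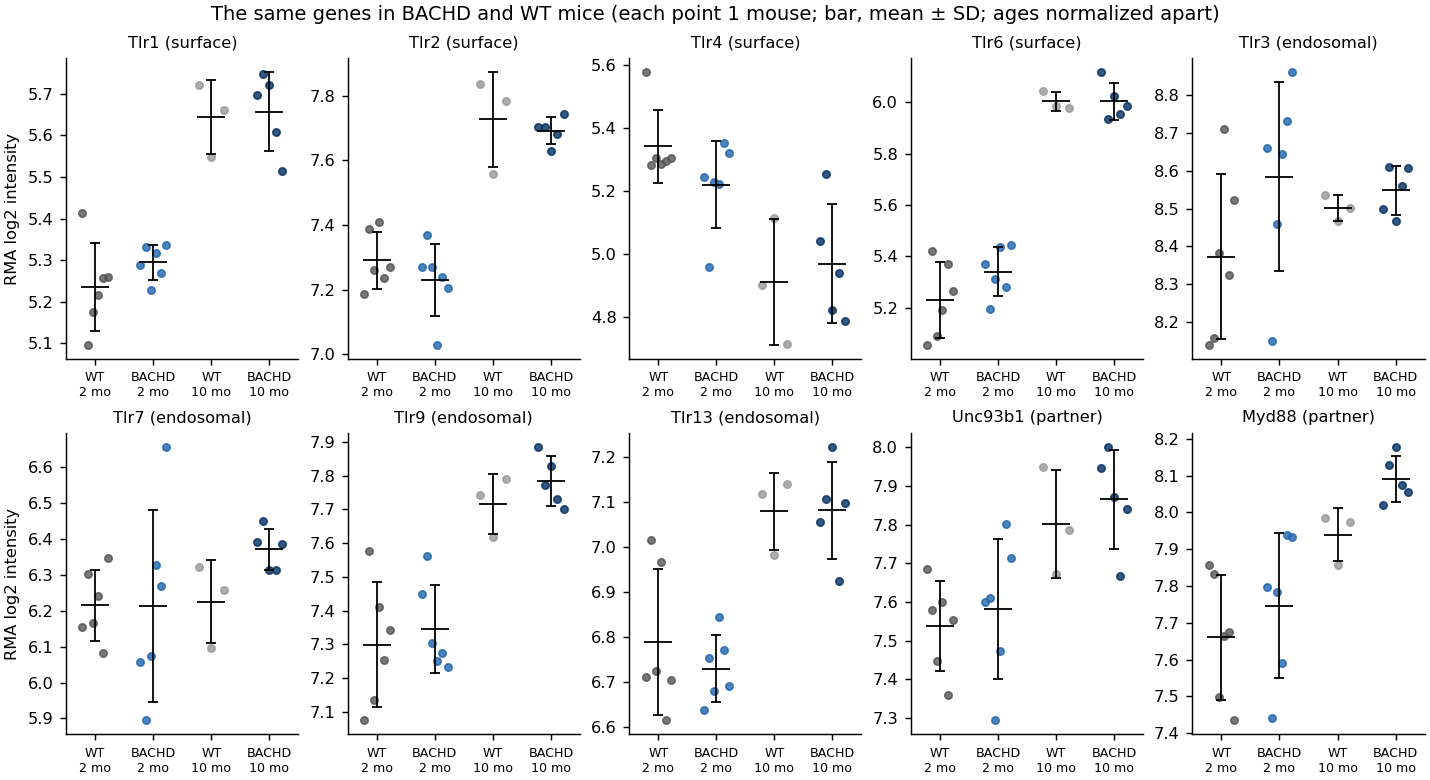
RMA log2 intensity (vertical axis, scaled per gene) of the 10 genes in WT and BACHD mice at 2 months (6 and 6 mice) and 10 months (3 and 5 mice), 1 point per mouse, with bars for the mean ± SD. BACHD and WT mice overlap at each age for all genes but Myd88 at 10 months. At that age 670 of all 34760 probe sets were higher and 542 lower without overlap. The ages were normalized apart, so levels are not to be compared between them.

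The difference between BACHD and WT mice was not shown to change with age for any of the 10 genes. The age by genotype term, 10 months minus 2 months, ran from -0.17 (Tlr3, SE 0.17) to 0.18 (Tlr4, SE 0.14), with 0 of 10 under an unadjusted limma p of 0.05, where 2.62% of all probe sets were. For Myd88 it was 0.07 (95% interval -0.22 to 0.35) and for Tlr7 0.15 (-0.17 to 0.46). The mean endosomal minus surface deviation of a mouse ran from -0.02 to 0.14 in BACHD mice at 2 months (WT -0.18 to 0.16) and from 0.01 to 0.13 at 10 months (WT -0.07 to 0.08), so both ages overlapped with WT. The AAV and BACHD experiments differ in the form of huntingtin, its promoter, the injection and the normalization, which cannot be told apart here.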

How the data were processed

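Hypothalamic RNA of 38 mice was hybridised to Affymetrix Mouse Gene ST arrays. As deposited by the authors, values are log2 intensities after Robust Multi-Array Averaging (background correction, quantile normalization and median polish; affy 1.70.0 in R 4.1.1, with limma 3.48.3 listed for tests). Raw arrays were not processed again, and no probe set was filtered out. Of 34760 probe sets, 21640 had 1 symbol in the platform table, 1321 several and 11799 no entry there. limma 3.58.1 in R 4.3.3 (lmFit, contrasts.fit and eBayes) was fitted to all probe sets, with the 18 AAV arrays together, each BACHD age alone and both ages together for the age by genotype term. Two-sided p-values were adjusted with the Benjamini-Hochberg method across the whole array, with a threshold of 0.05. Of the steps, only the limma fit was tried on simulated data. These had independent noise and a planted change larger than any difference of the 10 genes. The simulation therefore does not show how well smaller differences are called. An exact permutation test over mice was added for single genes after the values were seen. Pathway and marker lists and the members were chosen with earlier results of these data known. Named were all 10 members, from each pathway list up to 4 called genes, taken by their p in the 18Q comparison, the 3 most similar genes of members called in both AAV comparisons, and marker or pathway genes chosen after their values were seen. Same-numbered mice of different groups did not deviate together (correlations of -0.31 to 0.28). The number of arrays limits the precision. Alternatives were array centring, a filter on dim probe sets, trended and robust variances, the replicate number as a block, fits of the compared groups alone and leaving out each mouse. Promoter sequences are from RefSeq (GRCm38.p6).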

Additional observations from a re-analysis of the deposited data

Results flagged for a closer look

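Of 60 sets of values (1 gene in 1 group of 4 to 10 mice), 3 had a mouse far from the others by Dixon's criterion at the 95% level, which chance gives in about 1 in 20 sets. Tlr4 was low in BACHD replicate 2 at 2 months, at 4.96 with the nearest mouse at 5.22. It was high in WT replicate 1 at 2 months, at 5.58 with the nearest at 5.31. Both push the Tlr4 difference at 2 months downwards; without the first it was -0.07 and it stayed negative in each fit without 1 mouse. Tlr13 was low in WT control replicate 4, at 6.53 with the nearest mouse at 6.76.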

How the results depend on the processing

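In 18Q vs. WT the count of genes called was 9 as reported, 7 with arrays centred on their median, 8 with the compared groups alone, 7 with the replicate block and 6 to 9 without 1 mouse. With the dimmer probe sets removed it was 5, all of the 5 genes that this filter kept (Tlr2, Tlr3, Tlr9, Unc93b1 and Myd88). In 79Q vs. WT the count was 5 as reported, 6 with the compared groups alone and 3 to 6 without 1 mouse. With the dimmer probe sets removed it was 5 of the 5 genes kept, Tlr2 included. The replicate block left 2 (Tlr3 and Unc93b1), and the numbers did not pair the mice. Counts of 0 elsewhere stayed 0. Averaging several probe sets of a gene could not be run, each gene having 1.

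Reversals concerned differences near 0. Centring turned Tlr7 at 2 months to 0.047, Tlr6 and Tlr13 at 10 months to -0.0080 and -0.0069, and the age terms of Tlr2, Tlr9 and Unc93b1 to -0.031, -0.038 and -0.040. The replicate block turned the age term of Tlr1 to 0.018. Without 1 mouse, Tlr6 in 79Q vs. 18Q ran from -0.055 to 0.037 and Tlr7 at 2 months from -0.091 to 0.061. At 10 months these ranges were -0.035 to 0.052 for Tlr1, -0.12 to 0.021 for Tlr2, -0.040 to 0.16 for Tlr4, -0.028 to 0.022 for Tlr6, -0.047 to 0.041 for Tlr13 and -0.0029 to 0.14 for Unc93b1. The cause of each was not tested. Probes cannot be told from background here, as no detection call was used.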
